A study of Mus musculus with 6 samples.

Results

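Voltage-gated sodium and calcium channels were followed through all probe sets of the array whose annotation names 1 gene of the families Scn (sodium channels) or Cacna, Cacnb and Cacng (calcium channels and their relatives). The rule is the name of the gene alone and uses no measured value, though it was set with earlier results of these data known. It gave 85 probe sets for 35 genes, of 45037 probe sets tested and 18193 genes named in the whole table. The RNA came from the cortex of HtrA2 knockout mice and of their wild type littermates at postnatal day 29, with 3 arrays for each genotype and no treatment named in the labels. HtrA2 is a protease that sits between the mitochondrial membranes. The labels used here do not give the strain, the sex or the targeted allele, and do not say whether an array holds 1 animal or a pool, so the spread between arrays may be partly technical. The series asks which transcripts differ between these genotypes in a region that its submitters describe as free of neuron loss.

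Voltage-gated sodium channels open within a fraction of a millisecond when the membrane depolarises and carry the rising phase of the action potential. Their pore is a single large alpha subunit, joined by small beta subunits with an immunoglobulin fold that tune gating and adhesion. Voltage-gated calcium channels turn the same depolarisation into calcium entry, which triggers transmitter release at nerve endings, dendritic spikes and signals to the nucleus. Their pore, the alpha1 subunit, travels with an alpha2delta subunit on the outer face of the membrane and a beta subunit on the inner face. The Cacng genes form a family named after the gamma subunit of the muscle calcium channel, but most members that neurons make, the TARPs, are known as auxiliary subunits of AMPA-type glutamate receptors.

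Values are levels on the log2 scale after RMA, a method that corrects background, brings the arrays to 1 distribution and condenses each probe set to 1 value. A difference of 1 is a doubling. Differences are knockout minus wild type, ± is the standard error of a difference unless it is called SD, n = 3 in each group throughout, and a probe set counts as changed at an adjusted p under 0.05 in limma (Benjamini-Hochberg, over all 45037 probe sets). Precision is limited by the number of arrays. Probes differ in how brightly they bind, so "brightest" and "dim" describe the signal of a probe set and say nothing of how abundant one transcript is beside another.

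The targeted gene separated the groups but not in 1 direction. One Htra2 probe set lay at 8.89, 8.86 and 9.02 in wild type replicates 1 to 3 and at 6.42, 7.08 and 6.45 in the knockout, while the other was higher in the knockout by 1.11 ± 0.08. Which part of the gene either probe set reads was not analysed here. Knockout replicate 2 lay farthest from its group, with a median absolute deviation from the group mean of 0.106, against 0.0462 to 0.0755 in the other 5 arrays. Wild type replicate 2 differed in choroid plexus markers, which summed to 7657 on the linear scale against 477 and 548 in the other wild type arrays and 288 to 339 in the knockout. Y-linked genes were low in 1 array of each group (wild type replicate 1 and knockout replicate 3). General markers of neurons (8 of 8 measured) and of cortical excitatory neurons (5 of 6 listed) summed to 61570 or more and to 16410 or more on the linear scale in every array. Markers of the cerebellum summed to 394 to 423 in wild type and 293 to 332 in the knockout over 4 genes, with no overlap. Of the 4, 1 gene, Car8, was called lower while the other 3 differed by 0.04 to 0.55. Over all genes 1.67% had a probe set called lower.

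Of the 85 channel probe sets 1 changed, Scn4b, which fell in the knockout, and 0 rose. That is 1.18% of the members called lower, against 0.884% of all probe sets called lower and 1.77% called in either direction, so the share called was near the background. Of the 85 differences 50 were smaller than 0.1 on the log2 scale, as were 22845 of the 45037 over all probe sets. Differences larger than 0.3 numbered 10 (11.8% of members, against 9.83% of all probe sets), of which Cacng5 was the only one above 0. At an unadjusted p under 0.05 there were 15 lower and 3 higher members (21.2% of members, against 16.9% of all probe sets). By direction, 3849 of all 45037 probe sets were lower and 3752 higher at that threshold.

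Small differences below 0 were common among the channels. The difference was below 0 at 61 of 85 probe sets (71.8%), against 48.7% of all probe sets, and the median was -0.06 against 0.005. The 3 knockout arrays lay below the 3 wild type arrays at 15 channel probe sets (17.6%, background 11.6%) and above them at 4 (4.71%, background 11.6%). Median centring of the arrays gave 60 differences below 0 and a further quantile normalization gave 62. Both began from values that RMA had already normalized, and the part of normalization in these counts was not tested. Probe sets of 1 gene share a transcript and are not independent, so these shares are a description. Markers of neurons in general were also lower in sum, at 67230 to 67690 in wild type and 61570 to 63330 in the knockout on the linear scale, with 0 of 8 genes called and a median difference of -0.13. Markers of cortical excitatory neurons summed to 18840 to 19520 and 16410 to 17410, with 1 of 5 called. Among glial and other markers, 2 of 6 oligodendrocyte progenitor genes were called lower (sums of 7077 to 7528 and 5297 to 5608) and 3 of 6 microglial genes (5181 to 5725 and 4221 to 4626). Of 7 astrocyte genes, Gfap was called higher (0.63 ± 0.09 at its brightest probe set, adjusted p = 0.0228) and Aqp4 and S100b were called lower. The 5 measured oligodendrocyte genes all lay below wild type with 0 called, and summed to 34740 to 38750 and 31160 to 33750. Meningeal genes summed to 2448 to 3483 and 3531 to 5082 with 0 of 6 called. Of all genes 1.67% had a probe set called lower and 1.64% one called higher, though genes differ in their number of probe sets. The part of these markers in the channels' differences was not tested, and in a tissue sample fewer cells of a type and less RNA per cell cannot be told apart.

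**Figure D1:**
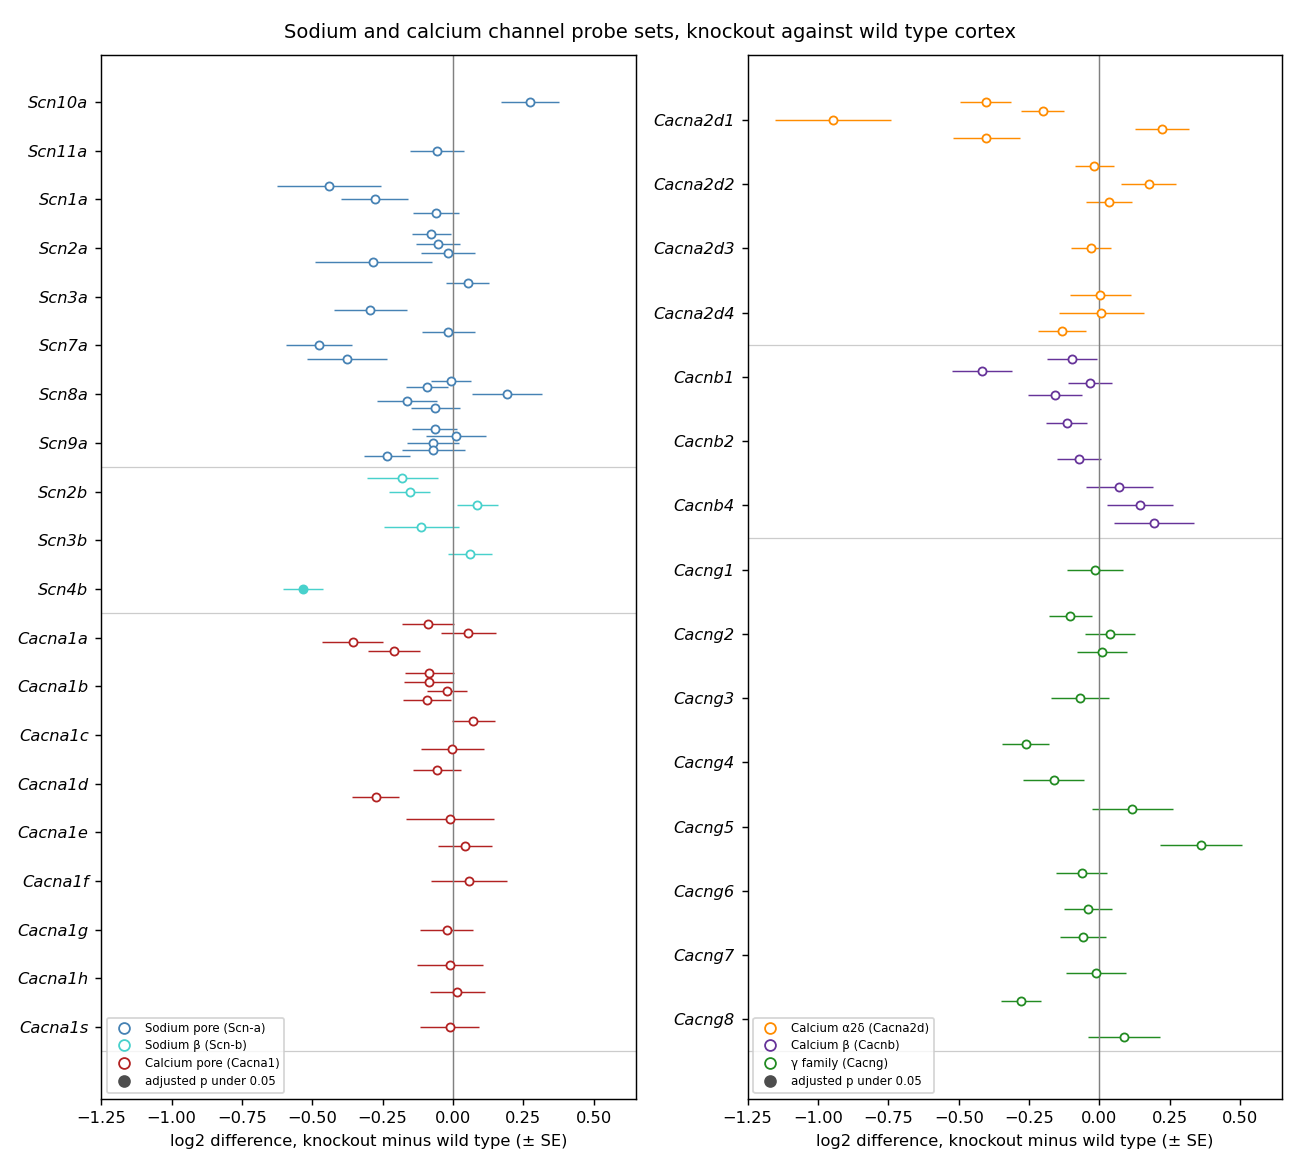
Log2 difference (knockout minus wild type, ± standard error, 3 arrays per group) of each of the 85 channel probe sets, in 1 row per gene and coloured by subunit class. The filled point is Scn4b, at -0.53, the only member past the test, and the largest open difference is a Cacna2d1 probe set at -0.95.

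Sodium channel pores held 24 probe sets for 8 genes, and 0 passed the test (limma, adjusted). At an unadjusted p under 0.05 there were 5 lower and 1 higher (25% of the class, against 16.9% of all probe sets). The median difference of the class was -0.07 and the range -0.48 to 0.27. In the brain the main pores are Nav1.1 (Scn1a), prominent in inhibitory interneurons, Nav1.2 (Scn2a), in the axons of young and unmyelinated excitatory neurons, Nav1.6 (Scn8a), which gathers at the axon initial segment and nodes, and Nav1.3 (Scn3a), highest before birth.

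Scn2a holds the brightest pore probe set (1427280_at). It read 12.28, 12.31 and 12.24 in wild type and 12.16, 12.19 and 12.24 in the knockout. The groups overlap, and the difference of -0.08 ± 0.07 has a 95% interval from -0.24 to 0.08 (adjusted p = 0.649). The other 3 Scn2a probe sets differed by -0.02, -0.05 and -0.28, the last at a probe set whose wild type arrays alone spanned 6.47 to 7.29. Scn8a was close to wild type too. Its brightest probe set lay at 11.52, 11.56 and 11.65 in wild type and 11.56, 11.54 and 11.59 in the knockout, a difference of -0.01 with an interval from -0.17 to 0.16, and its 5 probe sets ranged from -0.16 to 0.19. For both genes the intervals of these bright probe sets leave out differences beyond about 0.24 in either direction.

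Scn1a was below wild type at all 3 of its probe sets without passing. The brightest, at 10.37, 10.37 and 10.49 in wild type and 10.25, 10.44 and 10.36 in the knockout, differed by -0.06 (interval -0.25 to 0.13). The other 2 differed by -0.44 ± 0.19 and -0.28 ± 0.12 (adjusted p = 0.282 and 0.286), and both overlapped between the groups: the first read 7.93, 7.67 and 7.29 in wild type and 6.99, 7.06 and 7.51 in the knockout. Scn3a had a probe set with knockout arrays of 8.82, 8.38 and 8.78 just below wild type arrays of 8.83, 8.93 and 9.10 (-0.29 ± 0.13, adjusted p = 0.311), and a dim one at 0.05.

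Scn7a had the smallest p among the pores. It encodes Nax, an atypical member of the family that responds to extracellular sodium rather than to voltage and is known from glia of the circumventricular organs. Probe set 1436043_at read 5.44, 5.70 and 5.40 in wild type and 5.24, 4.91 and 4.96 in the knockout. All 3 knockout arrays were lower, by 0.48 ± 0.12 on average, with an adjusted p of 0.0904. A second Scn7a probe set differed by -0.38 ± 0.14, with overlapping groups, and the third by -0.02. All 3 are dim, meaning that their mean lies below the median of all probe set means, 6.42.

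Pores known from peripheral sensory neurons were dim at every probe set. For Scn9a (Nav1.7) the 5 probe sets had means from 3.47 to 4.56, and 1457819_at had the second smallest p of the class, at 4.74, 4.61 and 4.70 in wild type against 4.37, 4.56 and 4.42 in the knockout (-0.23 ± 0.08, adjusted p = 0.196), while the other 4 differed by -0.07 to 0.01. Scn10a (Nav1.8) read 4.21, 4.49 and 4.38 in wild type and 4.60, 4.79 and 4.51 in the knockout, a difference of 0.27 ± 0.10 (adjusted p = 0.236), and Scn11a (Nav1.9) differed by -0.06. The table holds no detection calls, so whether these 3 genes were above background was not measured.

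Sodium channel beta subunits held the 1 change. Scn4b encodes beta4, the subunit whose short cytoplasmic tail can block the open pore and so gives rise to resurgent sodium current in fast-firing neurons. Its single probe set (1434008_at) read 8.08, 8.16 and 8.06 in wild type replicates 1 to 3 and 7.58, 7.60 and 7.53 in the knockout. The arrays of each group lay within about 0.1 of each other and the groups were far apart, with means of 8.10 ± 0.0546 (SD) and 7.57 ± 0.0382 (SD). Scn4b fell by 0.53 ± 0.07 (1.45-fold lower, interval -0.70 to -0.37, adjusted p = 0.0167). Its size held between -0.50 and -0.55 when each array was left out in turn, but its call did not: it was lost without wild type replicates 1, 2 or 3 (adjusted p = 0.106, 0.127 and 0.0704) or knockout replicate 3 (0.0744), and kept without knockout replicate 1 (0.0474) or 2 (0.0111). Without wild type replicates 1, 2 and 3 only 70, 65 and 107 probe sets of the whole table passed.

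**Figure D2:**
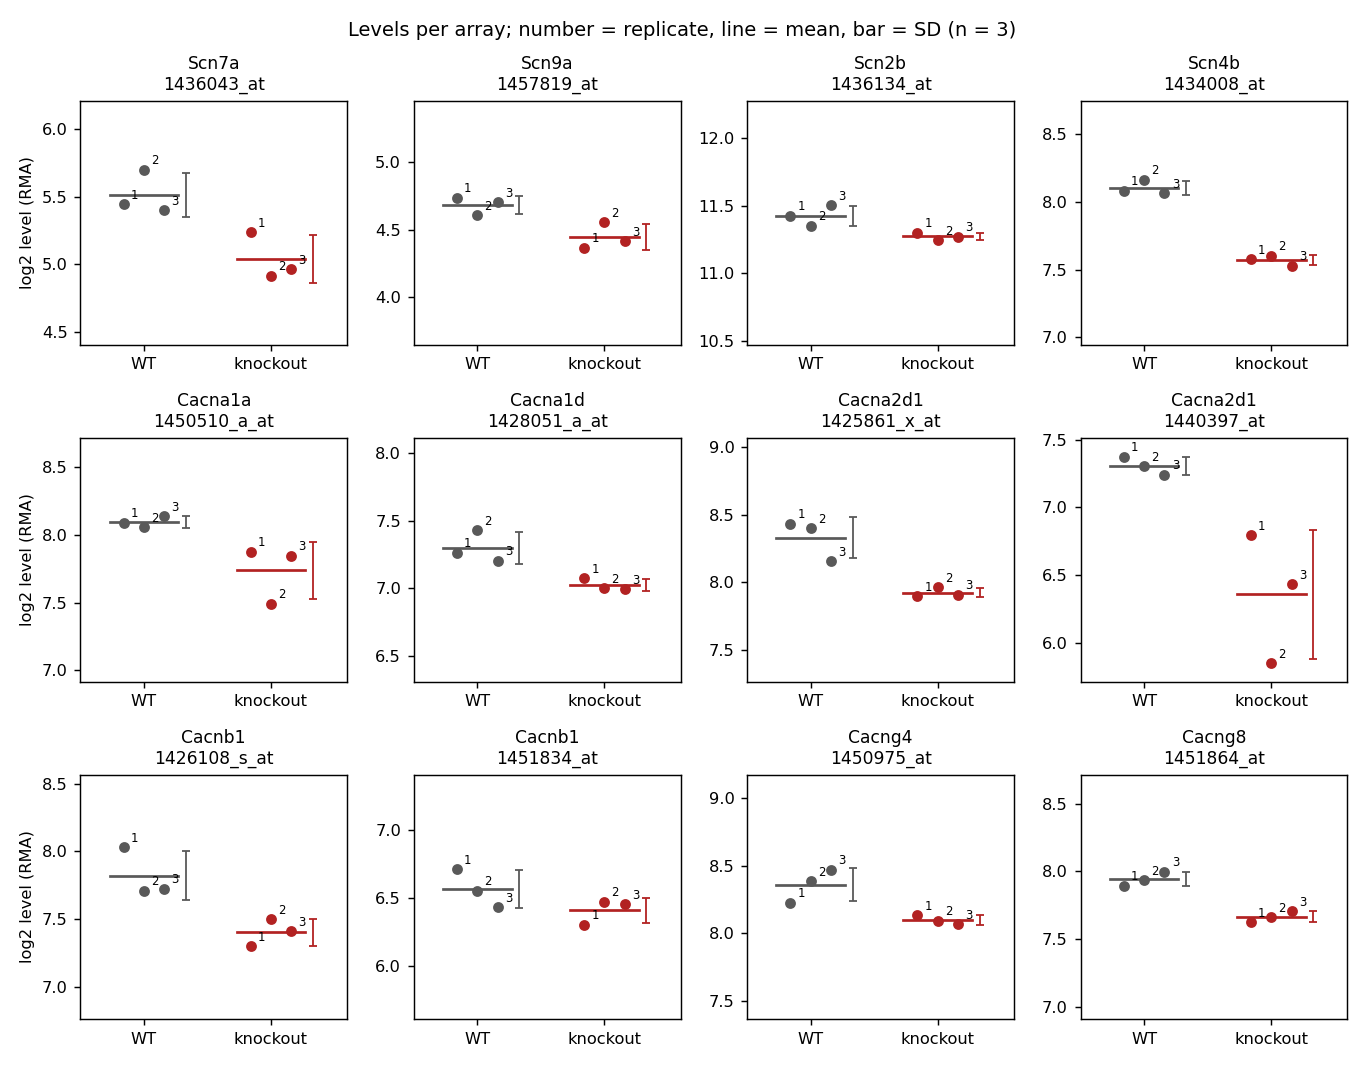
Log2 level in each array for the 12 probe sets that passed or had the smallest p of their subunit class, with replicate numbers, group means (lines) and SD (bars, n = 3), all panels spanning the same height. Scn4b arrays sit at 8.06 to 8.16 in wild type and 7.53 to 7.60 in the knockout, while the Cacna2d1 probe set 1440397_at spreads from 5.85 to 6.79 in the knockout.

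Scn4b is also known as abundant in the striatum, which lies below the cortex. Markers of striatal neurons were not lower: 0 of 4 measured genes were called, the brightest probe sets of all 4 differed by 0.02 to 0.10, and their sum was 1208 to 1447 in wild type and 1255 to 1417 in the knockout on the linear scale, with overlapping groups. In cortex Scn4b is known from large projection neurons and fast-firing interneurons. Pvalb, which marks the latter, read 10.55, 10.41 and 10.33 in wild type and 9.87, 10.01 and 10.07 in the knockout (-0.45 ± 0.09, adjusted p = 0.0548). Pvalb was singled out after its values were seen, and the list it belongs to was mixed. Of the 8 inhibitory neuron markers 0 were called, 4 lay below 0 at their brightest probe sets and the median was -0.03. Gad1 and Gad2, the enzymes that make GABA, both differed by 0.03, Lhx6 by 0.04 and Vip by 0.18, while Sst differed by -0.30 and Npy by -0.39. The list summed to 19440 to 19980 in wild type and 17930 to 18550 in the knockout. The part of these markers in the Scn4b difference was not tested.

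**Figure D3:**
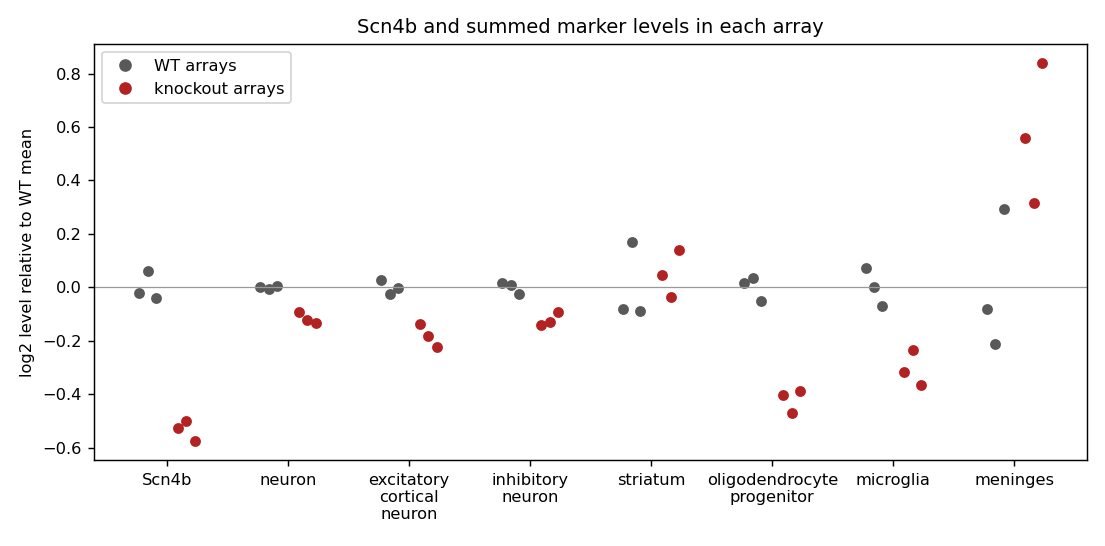
Log2 level of Scn4b and of the summed linear levels of 7 marker lists in each array, relative to the wild type mean. Knockout arrays lie 0.50 to 0.58 below the wild type mean for Scn4b, 0.09 to 0.13 below it for general neuron markers and on both sides of it for striatal markers.

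Scn2b, which encodes the disulfide-linked beta2 subunit and is a direct neighbour of Scn4b in the RefSeq gene order, did not pass at any of its 3 probe sets. Probe set 1436134_at lay at 11.43, 11.35 and 11.50 in wild type and 11.30, 11.25 and 11.27 in the knockout, with no overlap and a difference of -0.15 ± 0.07 (adjusted p = 0.341). The others differed by -0.18, with overlapping groups, and, at a dim probe set, by 0.09. Scn3b, for beta3, holds the brightest probe set of the class (1435767_at). It read 11.59, 11.62 and 11.64 in wild type and 11.77, 11.58 and 11.67 in the knockout, a difference of 0.06 with an interval from -0.12 to 0.24, and its other probe set differed by -0.11. Whether the Scn4b difference exceeds those of Scn2b and Scn3b was not tested.

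Calcium channel pores held 19 probe sets for 9 genes. None passed (limma, adjusted), with 2 of the 19 lower and 0 higher at an unadjusted p under 0.05. Of all probe sets 16.9% lay under that threshold in either direction. Of the 19 differences 16 were smaller than 0.1, against 22845 of the 45037 over all probe sets. Whether the class differs from all probe sets in these counts was not tested. The median of the class was -0.02 and the range -0.36 to 0.07. Without wild type replicates 1 or 2 or knockout replicate 2 the median was -0.0673, -0.0474 and -0.0463.

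Cacna1a encodes the P/Q-type pore, the main calcium source for transmitter release at many central synapses. Its 4 probe sets differed in sign and size. Probe set 1450510_a_at lay at 8.09, 8.06 and 8.14 in wild type and 7.87, 7.49 and 7.85 in the knockout. Wild type arrays were tight and all 3 knockout arrays were below them, replicate 2 the farthest (-0.36 ± 0.11, adjusted p = 0.150). Another also did not overlap (-0.21 ± 0.09), while the remaining pair differed by -0.09 and 0.05. Cacna1b, the N-type pore that shares the presynaptic role, ranged only from -0.09 to -0.02 over its 4 probe sets.

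Of the L-type pores, which couple depolarisation to gene expression in neurons, Cacna1d had a probe set (1428051_a_at) at 7.26, 7.43 and 7.20 in wild type and 7.08, 7.00 and 6.99 in the knockout. It did not overlap between the groups and had the smallest p of the class (-0.27 ± 0.08, adjusted p = 0.146). The other Cacna1d probe set differed by -0.06. Cacna1c, the major L-type pore of brain and heart, differed by 0.07 and -0.003. Cacna1e, the R-type pore, holds the brightest probe set of the class (1436260_at), at 10.76, 10.93 and 11.02 in wild type and 10.92, 10.86 and 11.07 in the knockout, with a difference of 0.04 and an interval from -0.18 to 0.26, and a dim one at -0.01. The low-threshold T-type pores Cacna1g and Cacna1h differed by -0.02 to 0.02 over 3 probe sets. Pores known from other tissues, Cacna1s of skeletal muscle and Cacna1f of the retina, differed by -0.01 and 0.06.

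Among the alpha2delta subunits, Cacna2d1 lay below wild type at 4 of its 5 probe sets, with no overlap at any of the 4 and no pass in the test. Of all probe sets 11.6% lay below wild type with no overlap, and the probe sets of 1 gene are not independent. Alpha2delta-1 raises the number of channels at the membrane, binds gabapentin and is a neuronal receptor for the synapse-inducing thrombospondins of astrocytes. Probe set 1440397_at had the largest difference of any channel probe set. It lay at 7.37, 7.30 and 7.24 in wild type and at 6.79, 5.85 and 6.43 in the knockout. The knockout arrays were all lower but scattered over a range of nearly 1, and the difference of -0.95 ± 0.21 had an adjusted p of 0.0677.

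The next Cacna2d1 probe set was far tighter. Probe set 1425861_x_at read 8.43, 8.40 and 8.15 in wild type and 7.90, 7.96 and 7.91 in the knockout (-0.40 ± 0.09, adjusted p = 0.0751). Its suffix marks probes that may also bind other transcripts. Another (1449999_a_at) gave the same -0.40 ± 0.12, from 9.56, 9.51 and 9.37 to 8.85, 9.30 and 9.09. The brightest probe set of the class (1433643_at) read 11.89, 12.01 and 11.97 in wild type and 11.83, 11.75 and 11.68 in the knockout, which is -0.20 ± 0.08 (adjusted p = 0.236). The dimmest, with a mean of 3.86, differed by 0.22 ± 0.10, also with no overlap. Leaving out dim probe sets from the whole test brought the first pair past the threshold (adjusted p = 0.0424 for 1440397_at and 0.0384 for 1425861_x_at), when 7.80% of all probe sets passed. Array weights did so too (0.0128 and 0.0151, with 9.34% of all passing), and a trend with robust moderation did for the first (0.0351, with 3.93%). Leaving out knockout replicate 2 brought both past it too (0.0200 and 0.0473), with 1449999_a_at as a further one, when 6.74% of all probe sets passed. Without knockout replicate 1 the first alone passed (0.0408), and without knockout replicate 3 or any wild type array none did.

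The other alpha2delta genes differed less, and the contrast with Cacna2d1 was not tested. Cacna2d3 read 11.15, 11.06 and 11.15 in wild type and 11.11, 11.09 and 11.06 in the knockout, a difference of -0.03 with an interval from -0.19 to 0.13. Cacna2d2, which pairs with P/Q-type channels and is mutated in ducky mice, had knockout arrays above wild type at its brightest probe set, at 9.22, 9.27 and 9.28 against 9.31, 9.62 and 9.36 (0.17 ± 0.10, adjusted p = 0.419), with the others at -0.02 and 0.03. Cacna2d4, known from the retina, was dim at all 3 probe sets and differed by -0.13 to 0.01. Over the 12 probe sets of the class the median was -0.02, and over its 6 that were not dim, 4 of them from Cacna2d1, it was -0.30.

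**Figure D4:**
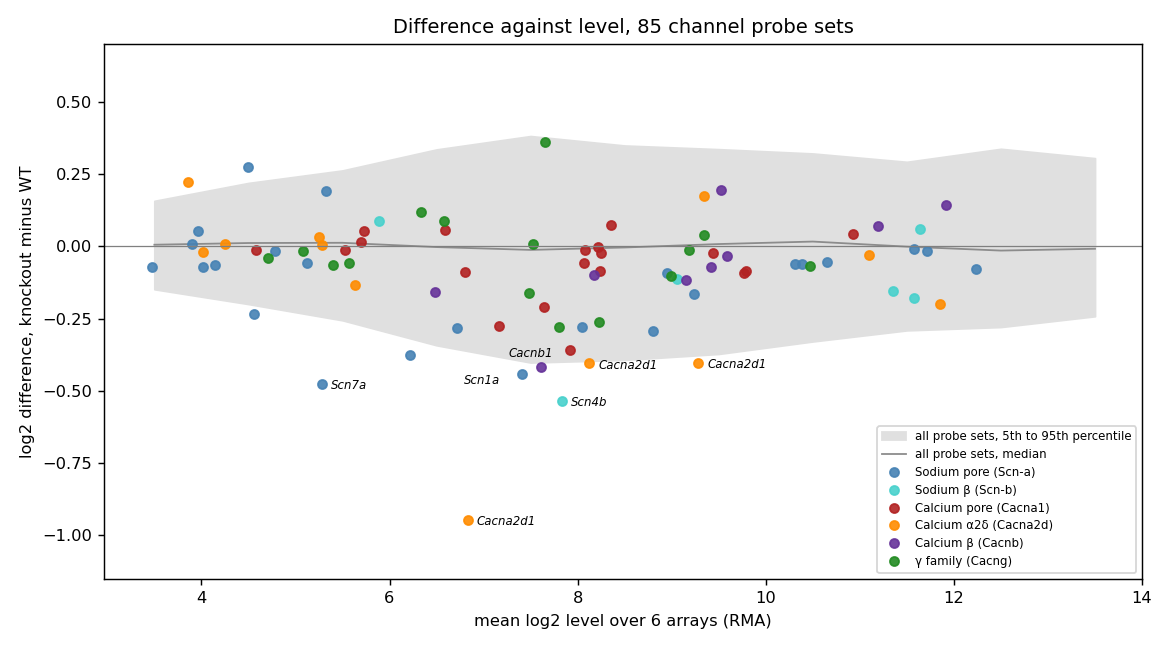
Log2 difference (knockout minus wild type) of each channel probe set against its mean log2 level over the 6 arrays, with the median and the 5th to 95th percentile of all probe sets in bins of 1 log2 unit. Members with a size over 0.4 are named: Scn7a, Scn1a, Scn4b, Cacnb1 and 3 of Cacna2d1, all of them below 0.

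Calcium channel beta subunits, which bind the pore inside the cell and bring it to the membrane, held 9 probe sets for 3 genes. Of these 0 passed (limma, adjusted). At an unadjusted p under 0.05, 1 probe set was lower (11.1% of the class, against 16.9% of all in either direction). The median was -0.07. Cacnb1 was below wild type at all 4 of its probe sets. Probe set 1426108_s_at lay at 8.03, 7.71 and 7.72 in wild type and 7.30, 7.50 and 7.41 in the knockout, which do not overlap (-0.42 ± 0.11, adjusted p = 0.0975), and its suffix marks probes shared between transcripts. Probe set 1451834_at read 6.71, 6.55 and 6.43 against 6.30, 6.47 and 6.45 (-0.16 ± 0.10, adjusted p = 0.471), and the other 2 differed by -0.10 and -0.03. Cacnb2 differed by -0.12 and -0.07.

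Cacnb4, the beta subunit lost in the lethargic mouse, went the other way at all 3 probe sets without passing. The brightest (1436912_at) lay at 11.91, 11.84 and 11.80 in wild type and at 11.98, 11.77 and 12.23 in the knockout. Replicates 1 and 3 were above every wild type array and replicate 2 was below them all, and the difference was 0.14 ± 0.12 (adjusted p = 0.606). The others differed by 0.07 and 0.19. Whether Cacnb4 and Cacnb1 differ in their response was not tested.

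The Cacng family held 15 probe sets for 8 genes and 0 passed (limma, adjusted). At an unadjusted p under 0.05 there were 2 lower and 1 higher (20% of the family, against 16.9% of all probe sets). The median was -0.04. Cacng8 encodes TARP gamma-8, an AMPA receptor partner known from hippocampus and cortex. Its probe set 1451864_at read 7.89, 7.93 and 8.00 in wild type and 7.62, 7.66 and 7.71 in the knockout. The arrays of each group lay close together and the groups did not overlap, but the difference was smaller, -0.28 ± 0.07, with an adjusted p of 0.0985. The second Cacng8 probe set differed by 0.09 ± 0.13.

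Cacng4 lay below wild type at both probe sets. Probe set 1450975_at lay at 8.23, 8.38 and 8.47 in wild type and 8.13, 8.10 and 8.07 in the knockout (-0.26 ± 0.08, adjusted p = 0.164), and the other overlapped (-0.16). Its neighbour in gene order, Cacng5, had the largest positive difference of any channel probe set. It read 7.30, 7.64 and 7.48 in wild type and 7.83, 7.56 and 8.10 in the knockout (0.36 ± 0.15, adjusted p = 0.260), and knockout replicate 2 lay inside the wild type range. A second, dim Cacng5 probe set differed by 0.12.

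Cacng3 holds the brightest probe set of the family (1450520_at), at 10.65, 10.56 and 10.30 in wild type and 10.37, 10.51 and 10.41 in the knockout, with a difference of -0.07 and an interval from -0.31 to 0.17. Cacng2, or stargazin, the first TARP to be described, ranged from -0.10 to 0.04 over 3 probe sets, and Cacng7 from -0.06 to -0.01 over 2. Cacng1, the true gamma subunit of skeletal muscle, and Cacng6 were dim and differed by -0.06 to -0.02.

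Viewed by array, the shift below wild type was present in each knockout array but uneven between classes. The median deviation of all 85 probe sets from the wild type mean was -0.08, -0.05 and -0.07 in knockout replicates 1 to 3, and -0.02, 0.004 and 0.01 in wild type, while all tested probe sets had medians of -0.01, 0.03 and -0.01 in the knockout. Sodium pores stood at -0.07, -0.05 and -0.12, and sodium beta subunits at -0.15, -0.04 and -0.13. Calcium pores overlapped the wild type range, at -0.05, 0.02 and -0.06 against -0.05, -0.02 and 0.04. The other 3 classes did not overlap with wild type in this median. Wild type arrays are centred on their own mean here and the 3 knockout arrays share that reference, so their agreement is a description.

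**Figure D5:**
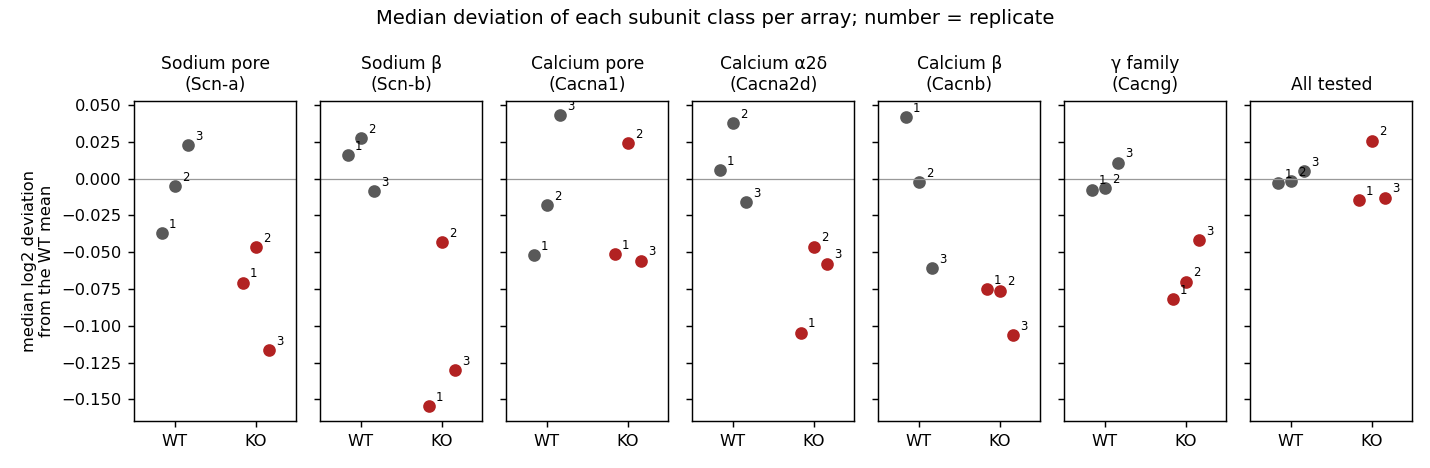
Median log2 deviation from the wild type mean over the probe sets of each subunit class, and over all tested probe sets, in each array, with replicate numbers. Knockout arrays lie below all wild type arrays in every class except the calcium pores, where knockout replicate 2 is at 0.02.

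The probe sets of a gene did not always give the same difference. Of 26 member genes with 2 or more probe sets, 14 had differences on both sides of 0, 10 were below 0 at all and 2 above 0 at all. In some of the 14, such as Cacna1h (-0.01 and 0.02), the differences were small. These counts were not compared with those of other genes. In 8 genes the probe sets lay more than 0.3 apart, up to the span of Cacna2d1 from -0.95 to 0.22. Part of the spread ran within wild type. At 8 probe sets wild type replicate 1 was over 0.3 above replicate 3 with replicate 2 between, 9.41% of members against 4.31% of all probe sets: 2 of Scn1a and 1 each of Scn2a, Scn2b, Scn3b, Cacnb4, Cacng3 and Cacng5. The opposite order, replicate 3 over 0.3 above replicate 1, was found at 5 probe sets (5.88% of members against 3.09% of all), 2 of Cacna1h and 1 each of Cacna1c, Scn9a and Cacng4. At 1445259_at of Scn2a the first gap was 0.82, and at the 3 brighter Scn2a probe sets replicate 1 was the lowest or the middle wild type array.

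Partners of the channels were read from 3 lists chosen by function, with earlier results of these data known. Of 17 measured partners of sodium channels, which anchor, modulate or degrade them, 0 passed in either direction (limma, adjusted), while 8 had a probe set below wild type and 1 a probe set above it at an unadjusted p under 0.05. Over all 18193 genes those shares were 13.7% and 14.4%, but genes of this list, and of the next pair of lists, have other numbers of probe sets each (here 56 for 17 genes, against 34945 for 18193), so the shares are not on the same footing. The smallest p belonged to Nrcam, an adhesion molecule of the axon initial segment and nodes (-0.36 ± 0.07, adjusted p = 0.0536), and Nedd4l, a ubiquitin ligase that removes sodium channels from the membrane (-0.33 ± 0.08, adjusted p = 0.0796). All 3 knockout arrays were below wild type at both, at 11.26, 11.19 and 11.19 against 11.61, 11.60 and 11.50 for Nrcam. The other Nrcam probe sets differed by -0.35 to -0.14, with -0.16 at the brightest. Those of Nedd4l differed by -0.55 to -0.17, and none of either gene passed.

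Of 21 measured genes listed as partners of calcium channels 3 fell and 0 rose. Over all genes 1.67% had a probe set called lower and 1.64% one called higher. Of the 21, with 38 probe sets, 8 had one lower and 1 one higher at an unadjusted p under 0.05 in limma. The list also counts Nalcn, Unc79 and Unc80, which belong to a sodium leak channel and were not called. Rims1, the active zone scaffold that tethers presynaptic calcium channels, fell at 2 probe sets, from 10.81, 10.79 and 10.81 to 10.22, 10.13 and 10.03 at the one with the smaller p (0.68 ± 0.08 lower, adjusted p = 0.0103). Akap5, which anchors kinases and calcineurin beside L-type channels, fell by 0.62 ± 0.11 at 1 of its 3 probe sets (adjusted p = 0.0336). Rem2, a small GTPase that restrains calcium channels, fell by 0.54 ± 0.10 at 1 of 2 (adjusted p = 0.0443), and its knockout arrays, at 7.89, 8.04 and 7.68, were below wild type arrays of 8.40, 8.45 and 8.37.

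Of 26 measured genes of calcium stores, pumps and buffers 2 fell and 0 rose (with 62 probe sets, 10 had one lower and 2 one higher at an unadjusted p under 0.05 in limma). Atp2b2, the plasma membrane calcium pump PMCA2, fell by 0.63 ± 0.10 (adjusted p = 0.0264), from 10.69, 10.54 and 10.40 to 9.83, 10.02 and 9.90, with its other probe sets at -0.68 and -0.21 without passing. Atp2a2, the SERCA2 pump of the endoplasmic reticulum, fell by 0.62 ± 0.10 at 1 of its 6 probe sets (adjusted p = 0.0267), and the other 5 differed by -0.15 to 0.04. The calls of these 5 falls rest on few arrays, as do those of the whole table (796 probe sets with all 6 arrays). Without wild type replicates 1, 2 or 3, 0 listed genes passed as lower, when 70, 65 and 107 probe sets of the whole table passed. Without knockout replicates 1 and 3 there were 2 and 1 (377 and 103 of the whole table). Without knockout replicate 2 there were 10 (3037 of the whole table). Over these omissions the differences ranged from -0.72 to -0.63 for Rims1 and -0.72 to -0.56 for Akap5. They ranged from -0.63 to -0.44 for Rem2, -0.70 to -0.55 for Atp2b2 and -0.69 to -0.53 for Atp2a2.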

How the data were processed

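Total RNA was labelled with biotin and hybridised to 1 Affymetrix array per sample. The deposited values were read as log2 levels: the authors made them with RMA, per the submitters' processing notes (no version given), and a base of 2 was inferred from their range. Of 45101 probe sets 64 array controls were left out. The platform annotation names 1 gene for 34945 probe sets, several for 932 and none for 9160, and the symbols of all 35 member genes equal the RefSeq symbols of the same gene identifiers (GRCm38.p6, used for names and gene order only).

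Knockout was compared with wild type in R 4.3.3 with limma 3.58.1 (lmFit, eBayes, two-sided, genotype as the only term, no filter on brightness). The fit was tested on simulated data. Members and lists were chosen with earlier results of these data known. Values per array are given for members past the test, else for the 2 with the smallest p of their class, and for the brightest of each class, with others added after their values were seen. Of partners, up to 4 genes past the test or else 2 are named. Marker sums use the brightest probe set of each gene. No pairing of replicate numbers was assumed. Alternatives were another normalization or centring, a filter on dim probe sets, robust moderation with a trend, array weights, a replicate block, the Y-linked level, 1 probe set per gene and each array left out.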

Additional observations from a re-analysis of the deposited data

How the results depend on the processing

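The number of channel probe sets called lower was 1, and 0 were called higher in every setting run. It was 4 of 57 without dim probe sets (with 2 of Cacna2d1 and 1 of Cacng8, when 7.80% of all probe sets passed), 2 of 85 with a trend and robust moderation (3.93% of all), 7 with array weights (when 9.34% of all probe sets passed) and 0 with the replicate block, where 0.342% of all probe sets passed, and it ranged from 0 to 4 over the omissions of 1 array. Listed partner genes called lower, 5 at first, were 9 without dim probe sets and with robust moderation, 16 with array weights, 2 with the Y-linked level, 0 with the block and 0 to 10 over omissions. Of all probe sets 0.144% to 6.74% passed over the omissions and 0.979% with the Y-linked level. Those called higher, 0 at first, were 1 after quantile normalization and without dim probe sets, 3 with array weights and 0 to 2 over omissions. By the labels, replicates of the 2 groups share only a number, and whether they are paired is not given. Deviations of same-numbered replicates correlated at -0.196, -0.0405 and -0.169, and those of other pairs at -0.0558 to 0.221. Deviations from means of 3 arrays are not independent, so these values cannot decide on a pairing. The replicate block took the whole table from 796 calls to 154 and Scn4b to an adjusted p of 0.0726. Scn4b stayed between -0.50 and -0.57 in all settings, with adjusted p from 0.00306 to 0.127. The cause of these changes was not tested. Class medians stayed below 0 in all settings. That of alpha2delta subunits moved to -0.30 without dim probe sets, -0.11 with array weights and -0.0814 with 1 probe set per gene (omissions -0.11 to -0.0184), sodium beta to -0.18 with 1 probe set per gene (-0.19 to -0.0465), calcium beta to -0.12 with array weights and -0.0330 with 1 probe set per gene (-0.10 to -0.0277), and gamma to -0.0750 with array weights (-0.0979 to -0.0146). The calcium pore median ranged from -0.0673 to -0.0194 over omissions and was -0.0619 with array weights, -0.0564 without dim probe sets, -0.0154 after median centring and -0.0123 with 1 probe set per gene. Among the named probe sets 3 values changed sign, all over omissions: Cacna1e without wild type replicate 1 or knockout replicate 3 and Cacng3 without wild type replicate 1. Cacna1e ranged from -0.0299 to 0.101 and Cacng3 from -0.172 to 0.00283. With 3 arrays a group, differences of the size seen at most channels, under 0.1, cannot be told from the spread between arrays.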
